A study of Rattus norvegicus with 2 samples.

Results

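The genes described here are the fibroblast growth factor (FGF) receptors Fgfr1, Fgfr2, Fgfr3, Fgfr4 and Fgfrl1, the ligands Fgf1 and Fgf2, and the PEA3 group of ETS transcription factors, Etv1, Etv4 and Etv5. They were found by matching the RefSeq accession of each array probe to rat gene symbols, and all 10 were on the array, with 16 probes, among 15443 named genes and 30367 probes for genes. Neural precursor cells from the cerebral cortex of SD rat embryos at day 14 were grown in N2 medium with 10 ng/mL bFGF, the protein made by Fgf2. They were transiently transfected with 4 µg of plasmid and compared on 2 two-colour Agilent arrays, with 1 array per comparison and no dye swap. On the withdrawal array, red (Cy5) held RNA of cells with the empty vector MSCV-IRES-EGFP that were differentiated without bFGF for 2 days in NB medium, and green (Cy3) held RNA of cells with the same vector kept in N2 medium with bFGF. On the Bcl-2 array, red held RNA of cells with rBcl-2-MSCV-IRES-EGFP, which carries rat Bcl-2, an inhibitor of mitochondrial cell death, grown with bFGF, and green again held RNA of cells with the empty vector and bFGF. All cultures were transfected, no sorting of transfected cells is described in the labels, and loss of bFGF and the change of medium cannot be told apart.

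FGF ligands bind receptor tyrosine kinases on the cell surface together with heparan sulfate, and the receptors signal through the RAS-ERK cascade. Etv1, Etv4 and Etv5 are transcription factors whose genes are switched on by that cascade in many tissues, so that their RNA is widely read as a sign of FGF signalling. In the embryonic cortex bFGF keeps precursor cells dividing, and its removal from cultures is a standard way to start differentiation. The arrays measured rat RNA, and the added bFGF protein was not measured.

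Before the values, the direction of the ratios has to be limited. The arrays share 1 dye orientation and, per the labels, the same kind of control RNA in green, yet their log2 ratios correlated at r = -0.67 over 42877 spots for genes (-0.12 with the ratio of Agilent's Feature Extraction software). The direction of each array is therefore not settled, and each ratio below divides red by green and follows the labels. If the sign of an array were turned, each gene named as higher there would be lower. A turned sign covers only a swap of the channels within an array. If a channel held other RNA than its label names, neither sign would give the comparison named, and this was not tested. The probe for Bcl2 stood at a log2 ratio of 0.39 for withdrawal and -0.02 for Bcl-2 transfection, and whether it reads the transfected sequence was not tested. Of the 8 neural precursor markers listed, 7 were measured, among them Nes, Sox2 and Pax6, and Sox9 gave no measured value.

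Fgfr3 had the ratio furthest from 0 of the 10 genes on both arrays. Fgfr3 encodes a receptor found in the developing brain on radial glia and astrocytes. Its probe A_43_P15335 had a scaled log2 signal of 11.04 in red (vector without bFGF) and 9.52 in green (vector with bFGF) of the withdrawal array. The same probe on the Bcl-2 array had 9.67 in red (Bcl-2 with bFGF) and 11.04 in green (vector with bFGF). The probe was thus brighter in cells labelled vector without bFGF than in their controls on the withdrawal array, and dimmer in cells labelled Bcl-2 than in their controls on the Bcl-2 array. The second probe, A_64_P079584, was dimmer throughout and had the same order: 8.13 in red and 7.13 in green of the withdrawal array, and 7.40 in red and 8.01 in green of the Bcl-2 array.

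As a log2 ratio, the value of Fgfr3 (the median of its probes) was 1.26 on the withdrawal array, a size of 2.4-fold, with the probes at 1.53 and 1.0. With the sign turned it would be -1.26. It was -0.99 on the Bcl-2 array, a size of 1.99-fold, with the probes at -1.37 and -0.61, and 0.99 with the sign turned. The limit for a gene to count as at least 2-fold was a log2 ratio of 1 or more in size with its probes of 1 sign, so Fgfr3 was counted on the withdrawal array and lay just under the limit on the Bcl-2 array. In all, 1.58% of the 10852 genes measured on the withdrawal array, and 2.64% of the 10241 on the Bcl-2 array, were at least as far from 0. The Feature Extraction ratio placed Fgfr3 at 1.59 and -1.29, with an error from its spot noise model of 0.25 and 0.27 for the probes on the withdrawal array and 0.24 and 0.25 on the Bcl-2 array. That error covers the noise of a spot and no difference between cultures.

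**Figure D1:**
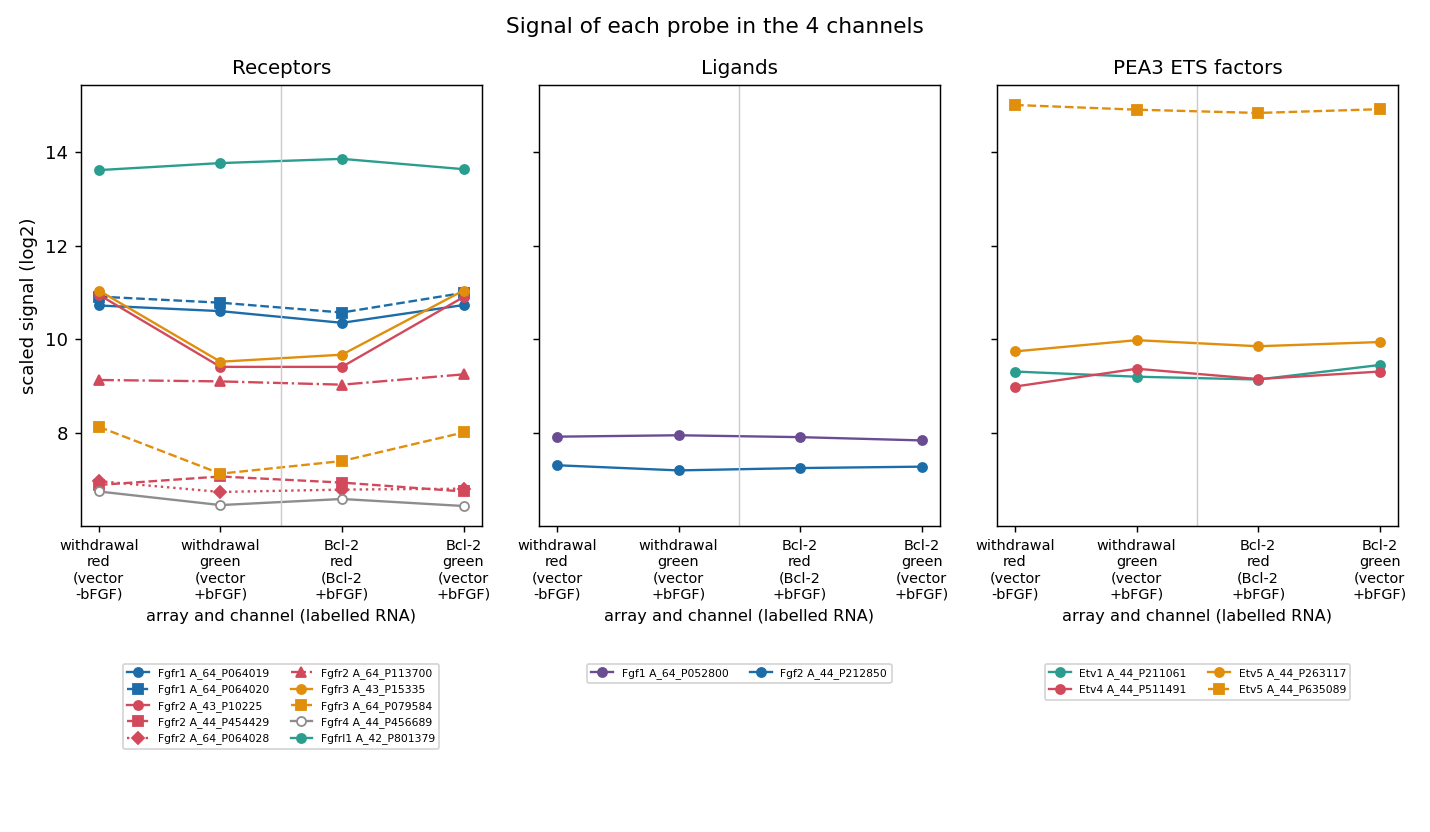
Scaled signal (log2; background-corrected, loess-normalized and Aquantile-scaled) of each of the 16 probes in the 4 channels, each array with red left of green and the labelled RNA in brackets, for receptors, ligands and PEA3 factors. Both Fgfr3 probes and Fgfr2 probe A_43_P10225 are high in red of the withdrawal array and green of the Bcl-2 array; Fgfr4 (open points) is not well above background.

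Some lists of cell type markers had the order of channels seen for Fgfr3, and others did not. Astrocyte markers gave a summed scaled signal of 32152 in red and 11066 in green of the withdrawal array, and 11893 in red and 32542 in green of the Bcl-2 array. Of the 8 listed, 7 were measured, all above 0 on the withdrawal array and all below 0 on the Bcl-2 array, from Aqp4 at 0.12 to Apoe at 3.54 for withdrawal, while Gfap gave no measured value. The fibroblast, meninges and smooth muscle list summed to 13481 in red and 5541 in green of the withdrawal array, and to 3527 in red and 12846 in green of the Bcl-2 array. Its genes differed widely in size, from Lum at 0.04 to Tagln at 3.23 on the withdrawal array. On the Bcl-2 array they lay between -3.02 for Tagln and -0.05 for Pdgfrb. The neuron list summed to 8285 in red and 6074 in green of the withdrawal array, and to 7238 in red and 7249 in green of the Bcl-2 array. Its 6 measured genes were all above 0 on the withdrawal array (Tubb3 at 1.03), with 2 above and 4 below 0 on the Bcl-2 array. The neural precursor list summed to 245761 in red and 168368 in green of the withdrawal array and to 182779 in red and 259017 in green of the Bcl-2 array. Fabp7 was the brightest gene of that list in each channel. Its scaled log2 signal was 17.01 in red and 15.74 in green of the withdrawal array, and 16.20 in red and 17.11 in green of the Bcl-2 array. The 7 measured precursor markers did not share a direction, with 5 above and 2 below 0 on the withdrawal array and 2 above and 5 below 0 on the Bcl-2 array; Vim, for one, was at -0.49 and 0.56. The oligodendrocyte lineage list summed to 95320 in red and 77306 in green of the withdrawal array. On the Bcl-2 array it summed to 92921 in red and 86637 in green. The microglia and blood list summed to 1459 in red and 1477 in green of the withdrawal array. On the Bcl-2 array it summed to 1706 in red and 1396 in green. For endothelium the sums were 389 and 333 on the withdrawal array and 329 and 349 on the Bcl-2 array (red and green). In such bulk RNA more cells of a type and more RNA per cell cannot be told apart, and the part of these markers in the Fgfr3 values was not tested.

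Fgfr2, the receptor whose splice forms differ in the ligands they bind, gave probes that disagreed. Probe A_43_P10225 was at 1.54 (log2 ratio) on the withdrawal array and at -1.49 on the Bcl-2 array. Its signal was 10.95 in red and 9.41 in green of the withdrawal array, and 9.41 in red and 10.90 in green of the Bcl-2 array, the same order as for Fgfr3. Probe A_64_P113700, also well above background in all 4 channels, was at 0.03 on the withdrawal array and -0.22 on the Bcl-2 array, so it differed little between channels. Of the dimmest probes, A_44_P454429 was at -0.19 on the withdrawal array. On the Bcl-2 array, where red alone was well above background, it was at 0.19. The Feature Extraction ratio there was 0.43 with a larger error of 0.48, so its direction is not settled. A_64_P064028 could not be measured on the Bcl-2 array. On the withdrawal array it was also well above background in red alone, at a log2 ratio of 0.23, or -0.06 with median centring. Passing in red alone favours a ratio above 0, so no direction is read from this probe. The Feature Extraction ratio put that dim probe at 1.74 with an error of 0.50, so the probes differ in size between methods as well as from each other.

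The spread over the Fgfr2 probes was wide beside that of other genes. On the withdrawal array the probes well above background in both channels spanned 1.72 on the log2 scale, and 2 of 1643 genes with several such probes (0.122%, Fgfr2 among them) spanned as much, against a median span of 0.17. The span on the Bcl-2 array was 1.27, reached by 4 of 1583 genes (0.253%), with a median of 0.16. The value of the gene, 0.13 on the withdrawal array and -0.22 on the Bcl-2 array, therefore stands for probes that lie far apart, and it moved with the processing. It was 0.75 on the withdrawal array with the Feature Extraction ratio, and -0.85 on the Bcl-2 array with the probes well above background in both channels alone. RefSeq lists 25 transcripts of Fgfr2, and which of them each probe reads, and whether a probe also binds RNA of another receptor, was not tested.

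The sequence upstream of the starts of Fgfr3 and Fgfr2 is shown because these genes hold the probes with the largest differences, with that of Etv5, a PEA3 factor that differed little, beside them. Each run is the 250 bases before the start used for the gene in RefSeq's rat assembly GRCr8, 5′ to 3′ on the strand of the gene. That start is not always the edge of the gene record. The record of Etv5 begins at 92113171 and that of Fgfr3 ends at 81227215, so part of each of these runs lies inside the record. The Fgfr2 record ends at 194280914, next to its run. Capitals mark matches on either strand of the GC box GGGCGG, a motif bound by SP1-type factors.
Fgfr3 (chr14:81227210-81227459, minus strand): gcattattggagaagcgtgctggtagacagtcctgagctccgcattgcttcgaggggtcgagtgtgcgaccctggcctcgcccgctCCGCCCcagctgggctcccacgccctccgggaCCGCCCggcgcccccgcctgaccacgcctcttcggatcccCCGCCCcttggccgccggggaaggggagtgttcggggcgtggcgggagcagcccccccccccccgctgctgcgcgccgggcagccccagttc
Fgfr2 (chr1:194280915-194281164, minus strand): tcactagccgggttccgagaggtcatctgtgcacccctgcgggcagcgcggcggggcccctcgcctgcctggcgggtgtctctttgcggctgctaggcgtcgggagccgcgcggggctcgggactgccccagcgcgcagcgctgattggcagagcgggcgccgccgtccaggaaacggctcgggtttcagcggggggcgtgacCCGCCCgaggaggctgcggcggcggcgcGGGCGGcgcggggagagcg
Etv5 (chr11:92113013-92113262, plus strand): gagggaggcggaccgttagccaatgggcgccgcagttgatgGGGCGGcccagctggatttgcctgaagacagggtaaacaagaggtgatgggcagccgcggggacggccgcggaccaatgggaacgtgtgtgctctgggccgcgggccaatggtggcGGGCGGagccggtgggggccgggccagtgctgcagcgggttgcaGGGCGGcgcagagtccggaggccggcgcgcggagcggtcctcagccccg
Fgfr3 and Etv5 held 3 matches each and Fgfr2 held 2, and a match was found in 6 of the 8 genes described here that have such a window and in 30.5% of 33469 windows of all genes. Fgfr3, Fgfr2 and Etv5 windows were 74.4%, 76.8% and 72.4% G or C, against a median of 51.2% over all. The ETS motifs AGGAAG and CCGGAAG, which share the letters GGAAG but differ in the base before them, were each in 0 of the 8 windows, against 29.5% and 7.27% of all windows. A match or its absence says only which letters these windows hold.

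Fgfr1, a receptor for bFGF on cortical precursor cells, differed by less than 2-fold on both arrays. Its probes A_64_P064019 and A_64_P064020 had signals of 10.72 and 10.91 in red and 10.60 and 10.78 in green of the withdrawal array, which gave log2 ratios of 0.12 and 0.14. They had, on the Bcl-2 array, 10.35 and 10.57 in red and 10.73 and 10.99 in green, which gave -0.38 and -0.43. On this scale both probes were thus lowest in the channel labelled Bcl-2 with bFGF. With net signals over the channel median they were lowest in green of the Bcl-2 array, at 3.12 and 3.38, against 3.72 and 3.97 in red. As a gene, Fgfr1 stood at 0.13 and -0.41, and 66.7% and 18.4% of measured genes were at least as far from 0. Median centring put its value on the withdrawal array at 0.38.

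Fgfrl1, a relative that binds FGF but lacks the kinase part of the other receptors, was measured by 1 probe at high signal. It had 13.61 in red and 13.76 in green of the withdrawal array, and 13.85 in red and 13.63 in green of the Bcl-2 array. Its log2 ratios were -0.15 and 0.22, with a Feature Extraction error of 0.20 and 0.21, and the sign on the withdrawal array turned with median centring, to 0.17. Fgfr4 was not well above background in any of the 4 channels, with net signals of 19.0 in red and 62.5 in green of the withdrawal array and 42.0 in red and 65.0 in green of the Bcl-2 array, so no ratio is given.

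**Figure D2:**
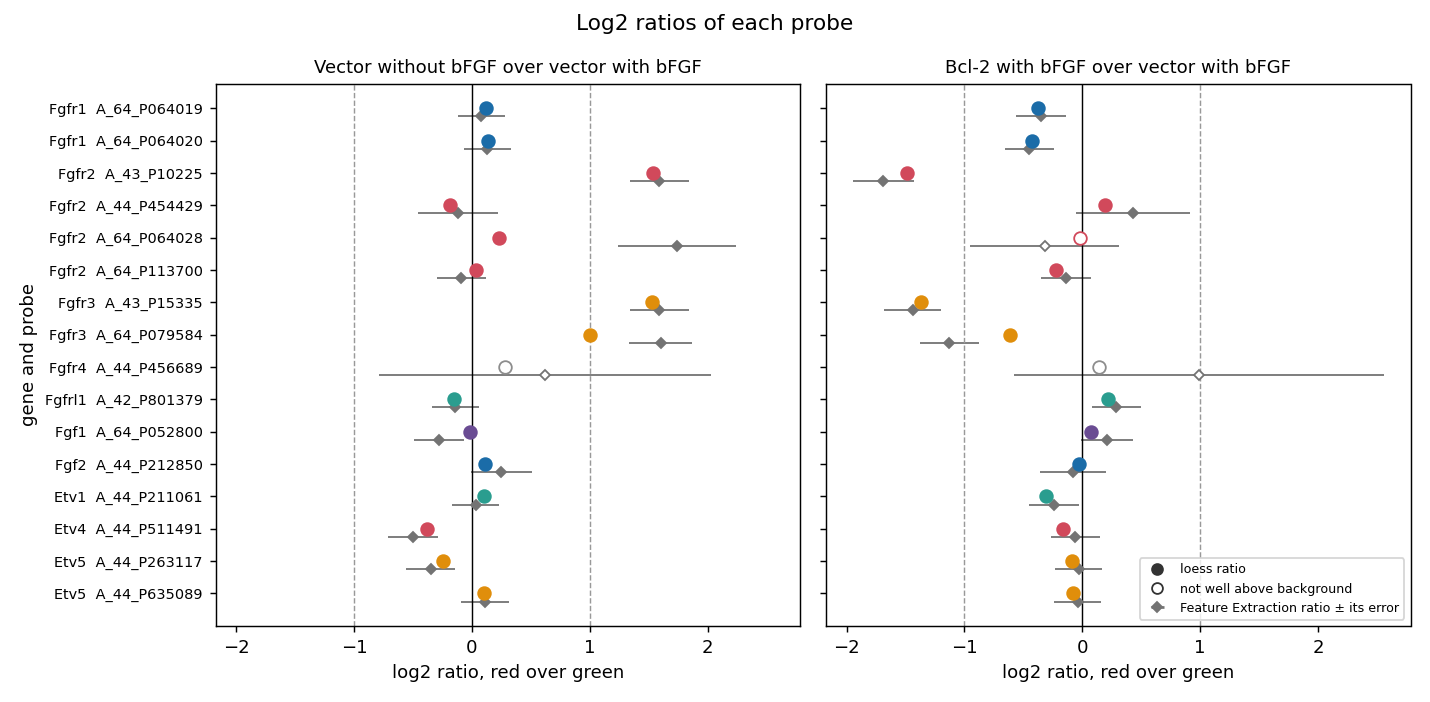
Log2 ratio of red over green of each probe (rows, by gene) on each array: coloured circles are loess ratios, grey diamonds are Feature Extraction ratios with the error of the spot noise model, open symbols are not well above background, and dashed lines mark 2-fold. Fgfr3 and Fgfr2 probe A_43_P10225 lie beyond or near the dashed lines, while Fgfr1, Fgfrl1, the ligands and the PEA3 factors lie within them.

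The ligands stayed near 0. Fgf2, which encodes bFGF itself, was printed as 10 spots of 1 probe on each array, so that the error of a spot can be seen. On the withdrawal array 9 spots without an outlier flag had log2 ratios with a lowest value of -0.12, a median of 0.08 and a highest value of 0.41, and a mean of 0.11 ± 0.18 (SD over spots of 1 array). The 7 spots used on the Bcl-2 array had a lowest value of -0.19, a median of -0.02 and a highest value of 0.10, and a mean of -0.03 ± 0.11 (SD over spots of 1 array). Over the alternatives Fgf2 ran between 0.05 and 0.31 on the withdrawal array and between -0.15 and -0.03 on the Bcl-2 array. Both means were smaller than the SD of their own spots, which gives the spread of single spots and not the error of a mean. These SDs are larger than the median SD over spots of 0.04 on each array, taken over 1180 and 1144 probes with 5 or more spots, and Fgf2 is a dim probe (mean net signal of 98.9 in red and 103.7 in green of the withdrawal array, and 103.7 in red and 113.1 in green of the Bcl-2 array).

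**Figure D3:**
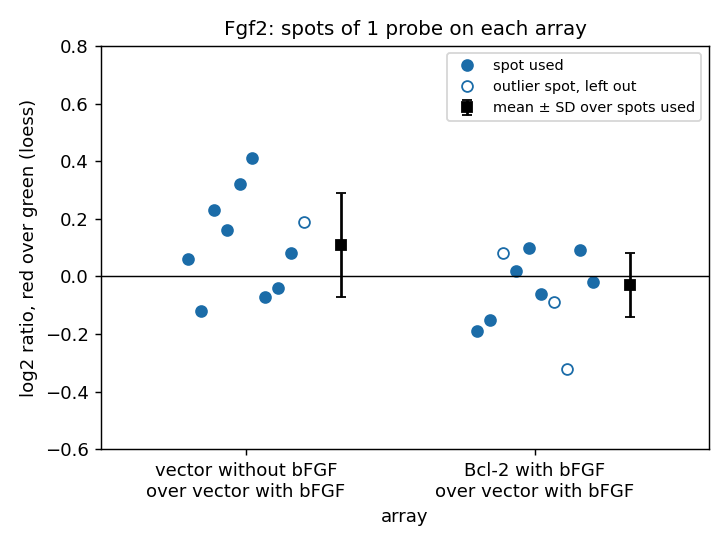
Log2 ratio of each of the 10 Fgf2 spots on each array (circles; open ones carry an outlier flag and were left out), with the mean ± SD over the spots used (squares). The spots used run between -0.12 and 0.41 on the withdrawal array and between -0.19 and 0.10 on the Bcl-2 array.

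Fgf1, a ligand that binds all FGF receptors, had 7.92 in red and 7.95 in green of the withdrawal array and 7.91 in red and 7.84 in green of the Bcl-2 array. Its log2 ratios of -0.02 and 0.07 were closer to 0 than those of 93.1% and 78.3% of measured genes. The direction is not fixed: over the alternatives Fgf1 ran between -0.28 and 0.11 on the withdrawal array and between -0.04 and 0.21 on the Bcl-2 array.

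None of the PEA3 factors reached 2-fold on either array. Etv4 (also called Pea3), the member that names the group, had 8.99 in red and 9.37 in green of the withdrawal array, a log2 ratio of -0.38, and 24.2% of genes were at least as far from 0. The Feature Extraction ratio was -0.50 with an error of 0.21. Etv4 on the Bcl-2 array had 9.15 in red and 9.31 in green, a log2 ratio of -0.16. On this scale Etv4 was thus lowest in vector cells without bFGF (1.3-fold lower as labelled, and higher by the same size with the sign turned). Over the alternatives this ratio on the withdrawal array ran between -0.50 and -0.12. With net signals over the channel median Etv4 was lowest in green of the Bcl-2 array, at 1.75, against 2.24 in vector cells without bFGF.

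Etv5 had a bright probe and a dimmer one. The bright probe, A_44_P635089, gave 15.00 in red and 14.90 in green of the withdrawal array (log2 ratio 0.10) and 14.83 in red and 14.91 in green of the Bcl-2 array (log2 ratio -0.08). The dimmer one, A_44_P263117, gave 9.74 in red and 9.98 in green of the withdrawal array (log2 ratio -0.25) and 9.85 in red and 9.94 in green of the Bcl-2 array (log2 ratio -0.09). The probes therefore had opposite signs on the withdrawal array, and the value of Etv5 there, -0.07, turned to 0.26 with median centring. Etv1 had 9.31 in red and 9.20 in green of the withdrawal array, a log2 ratio of 0.10, and 9.14 in red and 9.45 in green of the Bcl-2 array, a log2 ratio of -0.31. Across the 3 factors the ratios lay between -0.38 and 0.10 on the withdrawal array and between -0.31 and -0.08 on the Bcl-2 array, without a shared direction on the withdrawal array.

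Counted together, 9 of the 10 genes were measured on each array. On the withdrawal array 1 of 9 (Fgfr3) was at least 2-fold higher and 0 lower, where 2.42% of all measured genes were higher and 0.47% lower (2.89% in all), and 8 were under 2-fold. Their median log2 ratio was 0.10, beside 0.03 over all genes, with 5 above and 4 below 0. None of the 9 (0) was counted on the Bcl-2 array, where 0.557% of all genes were higher and 2% lower (2.56% in all), and the median was -0.16 beside -0.01, with 2 above and 7 below 0. With the signs turned the medians would be -0.10 and 0.16. The Feature Extraction ratio counted Fgfr3 as higher on the withdrawal array, where it counted 8.17% of all genes as higher and 2.18% as lower (10.4% in all). It also counted Fgfr3 as lower on the Bcl-2 array, where it counted 3.5% of all genes as higher and 6.74% as lower (10.2% in all).

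The green channels, both labelled vector with bFGF, can be set against each other on the Aquantile scale. Fgfr3 probe A_43_P15335 differed between them by 1.52 (Bcl-2 array minus withdrawal array, log2) and Fgfr2 probe A_43_P10225 by 1.48. Against the red channel labelled vector without bFGF, green of the Bcl-2 array differed by -0.00 for that Fgfr3 probe and by -0.05 for that Fgfr2 probe. Red of the Bcl-2 array differed from green of the withdrawal array by 0.16 and -0.00. On this scale, and with the processed signals of Feature Extraction (0.07 and 0.01 against the same red channel), the channels that lay close for these probes were thus not those labelled alike. That closeness depends on the scaling: with net signals over the channel median, green of the Bcl-2 array differed from that red channel by -0.99 for the Fgfr3 probe and by -1.03 for the Fgfr2 probe. The green channels then differed by 1.24 and 1.21. Fgfr1 differed between the green channels by 0.13 and 0.22, Etv4 by -0.06, the Etv5 probes by -0.05 and 0.01, Fgf1 by -0.11 and Fgf2 by 0.08. Over 17301 probes well above background in all channels the SD of the difference was 0.38 between the green channels, and 0.14 between green of the Bcl-2 array and red of the withdrawal array.

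Other genes of the pathway were taken from 7 lists and are described by counts beside all measured genes, of which 54.2% were above 0 on the withdrawal array and 48.2% on the Bcl-2 array. The ERK feedback and response list had a median of -0.49 over 15 measured genes on the withdrawal array and of 0.45 over 13 on the Bcl-2 array (0.49 and -0.45 with the signs turned). With median centring the first was -0.28, and with no filter on dim probes the second was 0.15. On the withdrawal array 10 of the 15 were below 0, and Myc, a growth-promoting transcription factor, was the 1 gene at least 2-fold lower, at -1.40. Ccnd1, the cyclin that drives entry into the cell cycle, was at -0.93 and Phlda1 at -0.91, but Fosl1, an AP-1 factor, was at 0.92. Phlda1 was the 1 gene at least 2-fold higher on the Bcl-2 array, at 1.19, with Ccnd1 at 0.95, Myc at 0.86 and Fosl1 at -0.91. On the Bcl-2 array 8 of the 13 were above and 5 below 0. The genes named so far are those furthest from 0, and others of the list lay near 0 or went against its median. Spred1 was at -0.09 on the withdrawal array and -0.03 on the Bcl-2 array. Dusp6, the brightest measured gene of the list, was at 0.13 and -0.33 (both named after their values were seen).

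Among genes for heparan sulfate, the sugar chain that FGF needs to bind its receptors, 2 were at least 2-fold on both arrays, where 2.89% of all genes were on the withdrawal array and 2.56% on the Bcl-2 array. Sulf2, a secreted sulfatase that trims heparan sulfate, had 13.46 in red and 11.91 in green of the withdrawal array (log2 ratio 1.55), and 12.11 in red and 13.38 in green of the Bcl-2 array (log2 ratio -1.27). Gpc4, a glypican that carries heparan sulfate on the cell surface, had 11.30 in red and 10.20 in green of the withdrawal array (1.1), and 10.23 in red and 11.35 in green of the Bcl-2 array (-1.12). Both had the order of channels seen for Fgfr3. With the loess ratio they were the only genes at least 2-fold among the 15 carriers and co-receptors and the 14 synthesis and editing genes measured on each array. Of the carriers, 11 were above and 4 below 0 on the withdrawal array, with a median of 0.23, and 3 were above and 12 below 0 on the Bcl-2 array, with a median of -0.14. Of the synthesis and editing genes, 9 were above and 5 below 0 on the withdrawal array, with a median of 0.04, and 5 were above and 9 below 0 on the Bcl-2 array, with a median of -0.10. Over all genes the medians were 0.03 and -0.01, and the quartiles -0.16 and 0.25 on the withdrawal array and -0.22 and 0.16 on the Bcl-2 array. The carriers Gpc1 at 0.57 and Sdc3 at 0.48 followed on the withdrawal array, and on the Bcl-2 array Sdc3 was at -0.52, Sdc4 at -0.49 and Cd44 at -0.45. Extl1, a glycosyltransferase gene of the exostosin family, was at 0.93 on the Bcl-2 array and 0.00 on the withdrawal array.

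Other FGF ligands were mostly too dim to measure: of 20 listed, 5 were measured on the withdrawal array and 2 on the Bcl-2 array. On the withdrawal array 3 of the 5 passed in red alone. As red over green, Fgf5 was given as at least 1.31-fold and Fgf18 as at least 1.15-fold. For Fgf18 that bound is no lower than its plain ratio, and Fgf21 (named after its values were seen) gave no bound above 1. Passing in red alone favours a ratio above 0, so no direction is read from these genes and nothing is read from the median of these ligands. Fgf12 and Fgf13, which stay inside the cell and bind sodium channels in neurons, were at 0.42 and 0.27 on the withdrawal array and -0.36 and -0.39 on the Bcl-2 array.

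Adaptors and RAS-ERK cascade genes had medians of 0.01 over 22 genes and 0.02 over 21, with 0 at least 2-fold on either array. The gene furthest from 0 was Rps6ka1, a kinase switched on by ERK, at -0.89 on the withdrawal array and 0.61 on the Bcl-2 array, followed by Hras, a RAS protein gene, at -0.38 and 0.39. ETS factors outside the PEA3 group had medians of -0.12 and 0.14 over 13 genes on each array, with 0 at least 2-fold. Erf, an ETS repressor that ERK moves out of the nucleus, led them at -0.64 and 0.63, with its probes apart, at -1.20 and -0.07 on the withdrawal array and at 1.0 and 0.26 on the Bcl-2 array. The 5 partners and regulators of PEA3 factors were all below 0 on the withdrawal array, with a median of -0.28, and all above 0 on the Bcl-2 array, with a median of 0.31. They are Cop1 and Det1, parts of a ubiquitin ligase that degrades PEA3 proteins, the pseudokinases Trib1 and Trib2, which bind Cop1, and the repressor Cic. All 5 kept these signs with the Feature Extraction ratio, and none reached 2-fold (from -0.45 for Trib2 to -0.18 for Cic on the withdrawal array).

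**Figure D4:**
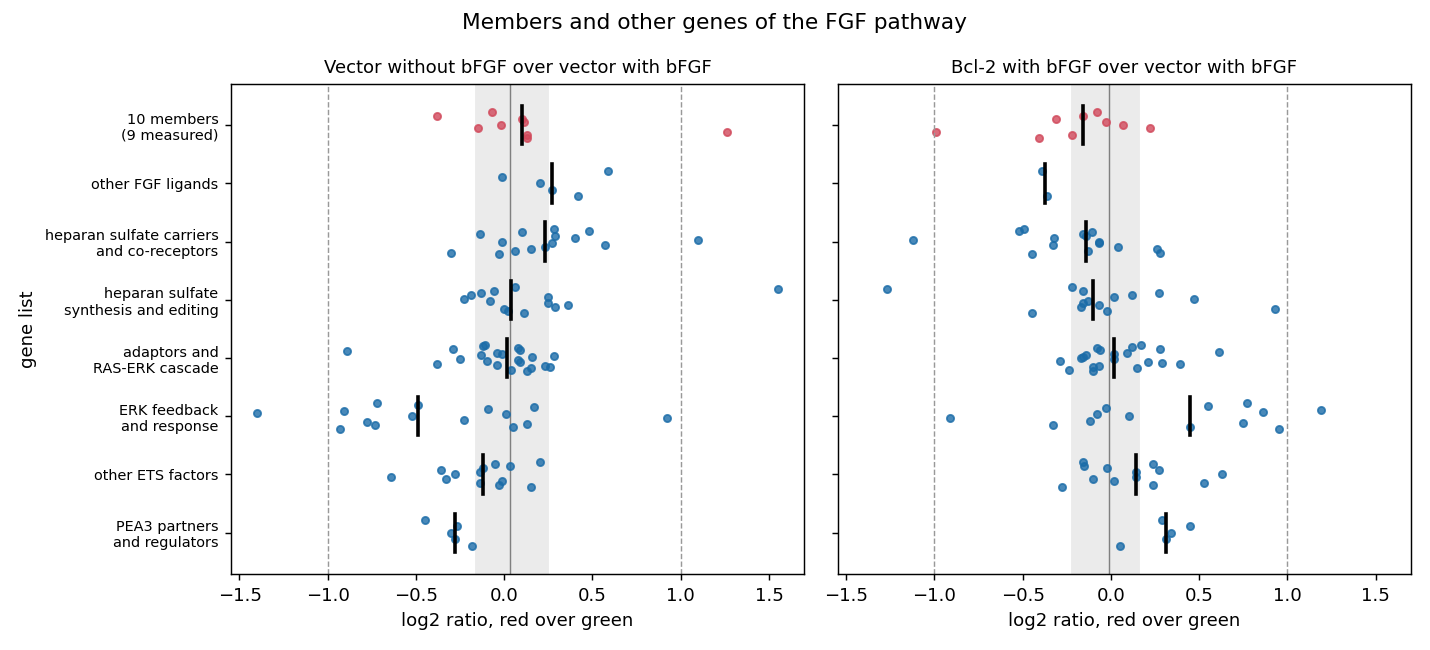
Log2 ratio of red over green of each measured gene of the 10 described here (red points, 9 measured) and of 7 lists of other FGF pathway genes (blue points) on each array, with black bars at the medians, a grey line and band for the median and quartiles of all genes, and dashed lines at 2-fold. The list of ERK feedback and response genes has its median at -0.49 on the withdrawal array and 0.45 on the Bcl-2 array; the others lie between -0.28 and 0.27 and between -0.38 and 0.31.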

How the data were processed

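Total RNA of 4 channels on 2 two-colour arrays was analysed. Per the file headers, the deposited scanner files hold spot and background intensity (median over pixels) from Feature Extraction 11.5.1.1, protocol GE2_1105_Oct12, design 028282, annotated on rn4. Version 8.5.1.1 is named in the submitters' processing notes. A log10 ratio of the channels (red on top) and the error the software assigns to it are also deposited, as is a p-value from the spot noise model, which was not used. The deposited value table gives a linear ratio (medians 0.932 and 0.944) with scale, centring and direction unstated. Set against the processed signals within 0.05 on the log2 scale after a constant, its first column equalled the withdrawal ratio. Its second column equalled the product of both ratios. Each held for 100% of the probes with 1 spot used (28393 and 28392), and probes with more spots, such as that of Fgf2, were not checked. The second column was therefore divided by the first before use.

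Background was removed from median signals with normexp (offset 50), and ratios were loess-normalized in limma 3.58.1 (R 4.3.3), where control spots had weight 0; the steps were tested on simulated data. Outlier spots (534 and 576) were left out; saturated spots numbered 0. Each probe is the mean of its spots, kept if at least 0.5 of its spots were well above background in 1 channel or more (20328 and 19026 probes). Symbols came from a RefSeq table of assembly GRCr8 for 60.4% of probes, and a gene is the median of its kept probes. For levels, channels were scaled by Aquantile. A gene well above background in 1 channel alone is given as "at least", with the dim channel set to its own signal or, if larger, to the lowest signal that passed; this is open to dye bias. Summaries used Python 3.11.15 and pandas 2.3.3.

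Each comparison has 1 array, so there is no test. Median net signals were 284.5 in red and 189 in green on the withdrawal array and 266 and 201 on the Bcl-2 array; their number limits the precision. Named were all 10 genes, in each list up to 4 genes furthest from 0 on each array plus those at least 2-fold, and the 3 genes nearest to the highest and the lowest of the 10. Genes and lists were chosen with earlier results of these data known. Alternatives were the Feature Extraction ratio, the value table, an offset of 10, median centring, other filters, single probes, net signals and, added after seeing the data, outlier spots kept and processed signals.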

Additional observations from a re-analysis of the deposited data

How the results depend on the processing

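Of 140 recomputed ratios of the 10 genes, 120 moved by no more than the Feature Extraction error of the gene and 20 by more. Part of the 120 could not move. Keeping outlier spots changed the spots of Fgf2 alone, and the filters on dim probes changed the measured probes of Fgfr2 alone. The count is therefore no measure of how stable the ratios are. Fgfr3 ran between 1.26 and 1.67 on the withdrawal array and between -1.36 and -0.99 on the Bcl-2 array over the scalings and filters, and single probes gave 1.0 and 1.53 on the withdrawal array and -1.37 and -0.61 on the Bcl-2 array. It passed the 2-fold limit on the Bcl-2 array, as 1 of the genes described, with the Feature Extraction ratio, the value table, an offset of 10 and median centring. Counts of all genes at least 2-fold on the withdrawal array, 314 as reported (263 higher, 51 lower), were 1124 (887 and 237) with the Feature Extraction ratio, 1150 (966 and 184) with the value table, 536 (445 and 91) with an offset of 10 and 507 (473 higher) with median centring. On the Bcl-2 array 262 (57 higher, 205 lower) became 1048 (358 and 690) with the Feature Extraction ratio and 1048 (307 and 741) with the value table. The median of the PEA3 partners on the withdrawal array was -0.55 with the Feature Extraction ratio, and that of ERK feedback and response was -0.28 with median centring, which itself moved the median of all genes on that array to 0.17. With no filter on dim probes, other FGF ligands had medians of 0.02 and -0.05, and ERK feedback and response 0.15 on the Bcl-2 array; more genes, dim ones, enter these medians. Of 30 recomputed differences between the green channels, 11 moved, 9 of them with net signals, where the Fgfr3 probe A_43_P15335 was at 1.24. The cause of the other shifts was not tested. No paired analysis was possible because each comparison has 1 array. Dim probes (Fgf2, the second Fgfr3 probe and the dimmest Fgfr2 probes) limit the sizes given, since the offset draws their ratios towards 0.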

Other observations

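The genes whose ratios on both arrays lay nearest to those of Fgfr3, among 10162 genes measured on both, were Gria3, an AMPA receptor subunit gene (1.25 and -1.0), Dync1i1, a dynein chain gene (1.28 and -0.98), and Vgf, a gene for secreted neuronal peptides (1.24 and -1.0), each within 0.024 on the log2 scale. Nearest to Etv4 were C1qtnf12 (-0.38 and -0.15), Dync1li1 (-0.40 and -0.17) and Rbm33 (-0.36 and -0.13). With 2 values per gene, this likeness is a description of these arrays.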
